A study of Mus musculus with 6 samples.

Results

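The genes described here are 38 genes of the hypoxia response and of glycolysis, taken from the deposited table by gene symbol. No measured value entered this rule, but the genes were chosen with earlier results of these data known. All 38 were found among the 35727 genes of the table, with the oxidase Ero1l matched under that symbol and glucose-6-phosphate isomerase as Gpi1. All 38 also passed the filter on low counts, which left 12819 genes to test. They fall into 6 regulators of the oxygen response (Egln1, Egln3, Kdm3a, Bhlhe40, Mxi1 and Ankrd37), 4 secreted factors (Vegfa, Adm, Stc1 and Stc2), 8 genes of pH control, mitochondria and stress (Car9, Car12, Bnip3, Higd1a, Ndrg1, Ero1l, Ak4 and Pdk1), 3 carriers (Slc2a1, Slc2a3 and Slc16a3), 11 genes of the upper steps of glycolysis (Hk1, Hk2, Gpi1, Pfkl, Pfkm, Pfkp, Pfkfb3, Pfkfb4, Aldoa, Aldoc and Tpi1) and 6 of the lower steps (Gapdh, Pgk1, Pgam1, Eno1, Pkm and Ldha).

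The study compared mouse undifferentiated pleomorphic sarcoma cells with and without silencing of Postn, the gene of the matrix protein periostin. Both groups come from 1 cell line, made from p53KO mesenchymal stem cells of female C57/Bl6 mice by retroviral overexpression of the cyclin Ccne1 together with a red fluorescent protein (RFP), and passaged under the skin of female wild-type mice. The line then received a virus with a hairpin against Postn (shPostn, 3 libraries) or with a scrambled hairpin (shSCR, 3 libraries), so the controls share the p53 loss, the Ccne1 overexpression, RFP and a viral hairpin. Cells of each kind were transplanted into mice, and RFP-positive cells were sorted from the tumours for poly(A) RNA sequencing. The labels give no age of the mice, name 1 hairpin target without its sequence, and do not say whether the replicates of a group came from separate tumours. The p-values therefore measure the spread between these libraries, which may be technical in part. The sample titles call the silenced group a knockout, while Postn was still read at 12.15% of its control level.

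When oxygen is short, the prolyl hydroxylases that mark the hypoxia-inducible factors HIF-1α and HIF-2α for destruction slow down, and the stabilised factors pair with ARNT on a short DNA core, ACGTG or GCGTG. Their targets include the glucose carrier, nearly every enzyme of glycolysis, the kinase that keeps pyruvate out of the mitochondria, carbonic anhydrases that export acid, and angiogenic and calcium-regulating hormones. In solid tumours these genes are commonly high in cells far from blood vessels, while glycolysis enzymes are abundant in most dividing cells whatever the oxygen supply.

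Promoters of the 3 genes that changed (Stc2, Pfkm and Pfkfb4) and of 4 others with a core (Bnip3, Ak4, Slc2a1 and Hk2) are shown first, so that this core can be read beside the values. RefSeq promoter windows (GRCm38.p6) were matched for 34 of the 38 genes by symbol, and Bhlhe40, Stc1, Ndrg1 and Slc2a3 were not matched. In the 250 bases before the RefSeq start nearest the annotated 5′ end, 26 of the 34 (76.5%) held ACGTG or GCGTG on either strand, against 56.7% of 9699 tested genes and 44.4% of all 16801 genes with a window. The ACGTG form alone was in 14 of the 34 (41.2%), against 21.5% of the tested genes and 17.7% of all. On the opposite strand these cores read CACGT and CACGC, and a palindromic CACGTG counts once on each strand. The sequences below run 5′ to 3′ on the gene's strand, end before the annotated transcript begins, and carry the cores in capitals. They are Bnip3 at chr7:138909520-138909756 on the minus strand, Ak4 at chr4:101419039-101419276 on the plus strand, Slc2a1 at chr4:119108495-119108710 on the plus strand, Hk2 at chr6:82774455-82774704 on the minus strand, Stc2 at chr11:31370075-31370311 on the minus strand, Pfkm at chr15:98092339-98092588 on the plus strand and Pfkfb4 at chr9:108991652-108991777 on the plus strand.
Bnip3: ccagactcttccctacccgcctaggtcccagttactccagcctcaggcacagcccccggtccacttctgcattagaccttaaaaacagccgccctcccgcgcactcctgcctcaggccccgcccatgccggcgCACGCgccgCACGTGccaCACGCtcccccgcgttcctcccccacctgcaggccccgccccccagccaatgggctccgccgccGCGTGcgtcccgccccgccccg
Ak4: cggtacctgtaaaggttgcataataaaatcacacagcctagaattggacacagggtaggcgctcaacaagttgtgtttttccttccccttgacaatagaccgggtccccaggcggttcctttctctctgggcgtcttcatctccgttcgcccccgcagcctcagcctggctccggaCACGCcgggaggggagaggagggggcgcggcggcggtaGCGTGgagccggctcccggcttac
Slc2a1: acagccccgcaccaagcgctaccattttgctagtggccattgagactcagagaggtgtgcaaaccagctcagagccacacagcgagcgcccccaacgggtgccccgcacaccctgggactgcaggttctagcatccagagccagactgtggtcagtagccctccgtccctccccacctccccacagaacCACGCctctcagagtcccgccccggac
Hk2: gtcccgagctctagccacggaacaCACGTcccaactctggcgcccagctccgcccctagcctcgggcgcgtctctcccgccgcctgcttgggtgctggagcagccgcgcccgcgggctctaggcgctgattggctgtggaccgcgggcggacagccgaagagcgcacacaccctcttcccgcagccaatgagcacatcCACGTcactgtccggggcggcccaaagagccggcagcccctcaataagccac
Stc2: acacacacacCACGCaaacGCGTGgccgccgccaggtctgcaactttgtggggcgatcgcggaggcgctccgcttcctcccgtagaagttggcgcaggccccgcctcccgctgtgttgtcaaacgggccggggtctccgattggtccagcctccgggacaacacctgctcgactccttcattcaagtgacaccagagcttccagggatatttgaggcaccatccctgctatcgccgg
Pfkm: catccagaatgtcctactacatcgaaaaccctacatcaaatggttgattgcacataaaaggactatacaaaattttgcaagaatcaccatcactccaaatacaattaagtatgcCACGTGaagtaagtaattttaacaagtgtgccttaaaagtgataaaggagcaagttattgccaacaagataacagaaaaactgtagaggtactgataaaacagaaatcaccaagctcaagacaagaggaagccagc
Pfkfb4: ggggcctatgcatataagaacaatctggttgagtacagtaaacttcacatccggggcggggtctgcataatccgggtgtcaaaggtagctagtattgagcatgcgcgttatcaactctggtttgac
Bnip3 held 5 cores in its full window, of which 4 lie 99 to 117 bases before the RefSeq start. Hk2 held 2, both of the ACGTG form, and Slc2a1 held 2 in its full window, of which the one farther from the start is printed. Pfkfb4 held 1 core in its full window, 117 bases before the RefSeq start, which lies past the 126 bases printed. Ldha held 5. A match of 5 letters is a description of these windows, and whether a factor binds there was not measured.

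Library totals lay between 19603269 and 20376554 counts, and between 15901 and 16666 genes had a count. Levels are given as CPM, read counts scaled to a common library size after normalisation by trimmed means (TMM), and levels of different genes are compared only as CPM per kilobase of exon. Exon length counts each base of any annotated exon of a gene once, so it can exceed the length of a single transcript. Postn stood at 4097, 3602 and 3225 CPM in shSCR replicates 1 to 3 and at 217, 471 and 639 CPM in shPostn replicates 1 to 3. The groups did not overlap (log2 fold change −3.04, SE 0.41, adjusted p = 0.0125 in edgeR's quasi-likelihood test with Benjamini-Hochberg adjustment; exact 2-sided permutation p = 0.1, the smallest that 3 against 3 allows). Without shSCR replicate 1 or shSCR replicate 2 the adjusted p was 0.0532 and 0.0542. Markers of the sorted cells were high as a sum in every library: 12 mesenchymal genes such as Col1a1 summed to between 41617 and 64420 CPM. Not each of the 12 was high, with Thy1 at 0.257 to 3.89 CPM. One silenced library stood apart. In shPostn replicate 3 the summed level of 15 macrophage markers was 1209 CPM, against 59.0 to 245.8 CPM in the other 5 libraries. All 15 were detected in every library. The 14 pan-leukocyte markers summed to 467.7 CPM there and to 200.4 to 266.4 CPM elsewhere. Most of the sum elsewhere was 1 marker, Arhgdib, at 157.5 to 199.1 CPM, and it stood at 151.4 CPM in shPostn replicate 3. The 6 erythroid markers summed to 27.6 CPM in shPostn replicate 3, 10.1 CPM in shSCR replicate 1 and 0.152 to 2.79 CPM in the other 4 libraries.

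Of the 38 genes, 2 rose in shPostn and 1 fell. The phosphofructokinase subunit gene Pfkm and the fructose-2,6-bisphosphate regulator Pfkfb4 rose, and the stanniocalcin gene Stc2 fell. These 3 are 7.89% of the genes, against 10.1% of the 12819 genes tested (4.61% that rose and 5.53% that fell), so the share called was near the background and is no result about the set. The log2 fold change was below 0 for 28 of the 38, with a median of −0.12 against 0.0089 over all genes tested, and 6 of the 38 had an unadjusted p under 0.05. The share of all genes under that unadjusted threshold was not counted, here or for such counts below. It cannot be less than the 10.1% that passed the adjusted threshold. The libraries of the groups did not overlap for 2 genes that were higher in shPostn (Pfkm and Pfkfb4; 16.6% of all genes tested) and for 4 that were lower (Stc1, Stc2, Car12 and Eno1; 17.0% of all genes tested). DESeq2 called the same 2 genes as raised (7.54% of all genes) and 5 as lowered, Stc1, Stc2, Car12, Slc2a3 and Eno1 (7.86% of all genes). For most of the other genes shSCR replicate 1 and shPostn replicate 3 were the highest libraries of their groups, as the plot of levels by library shows. Values given below without shPostn replicate 3 are therefore lower for those genes by construction. Leaving out shSCR replicate 1 instead lowers their control level, and then 1 of the 38 genes fell (1.92% of all genes) and 1 rose (1.39% of all genes).

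**Figure D1:**
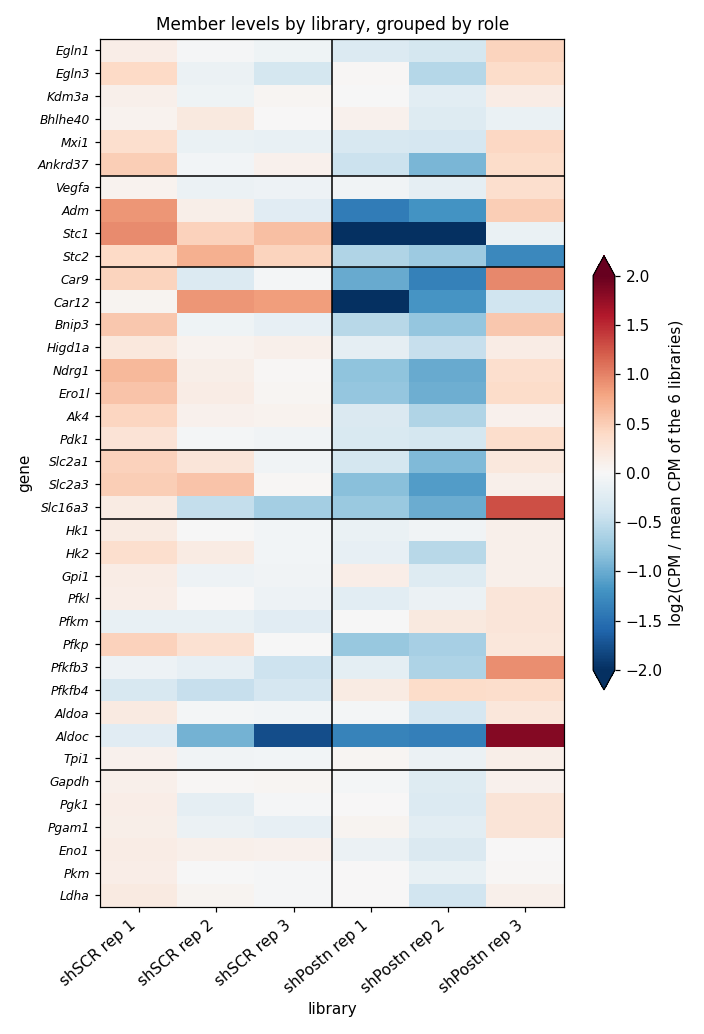
Each row is a gene, grouped by role, and each column a library; colour gives log2 of the CPM over the mean CPM of the 6 libraries, blue below and red above that mean, with values past −2 or 2 at the end colours. shSCR replicate 1 and shPostn replicate 3 are the highest of their group for 34 of 38 genes each, and Pfkfb4 and Pfkm run the other way from most rows.

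The regulators of the oxygen response gave 0 calls among 6 genes in edgeR, in limma-voom and in DESeq2, with 0 unadjusted p-values under 0.05. Egln3, a prolyl hydroxylase that HIF itself induces, had the highest level of the 6 per kilobase, at 72.5 ± 19.8 CPM per kilobase in shSCR and 71.3 ± 21.9 in shPostn (SD, n = 3). It was read at 252, 176 and 151 CPM in shSCR and at 195, 129 and 246 CPM in shPostn. The 2 groups overlapped over almost their whole range (log2 fold change −0.02, SE 0.29, adjusted p = 0.971). Egln3 lies on chromosome 12, where the median gene stood at a log2 fold change of 0.39, and with the chromosome medians taken out Egln3 was at −0.41 (adjusted p = 0.469). The log2 fold changes of the other 5 were −0.02 for the main oxygen sensor Egln1, −0.03 for the histone demethylase Kdm3a, −0.19 for the clock-linked repressor Bhlhe40, −0.07 for the MYC antagonist Mxi1 and −0.43 for the ankyrin repeat gene Ankrd37. Egln1, Egln3, Kdm3a, Mxi1 and Ankrd37 were all highest of the shPostn libraries in replicate 3, where Egln1 reached 136 CPM against 83.0 and 79.0 CPM in replicates 1 and 2. Without replicate 3 Egln1 was at −0.32 (adjusted p = 0.0317) and Ankrd37 at −0.85 (adjusted p = 0.0394). Other single libraries left out gave no such fall. Without shSCR replicate 1 Egln1 was at 0.04 (adjusted p = 0.947), and the adjusted p of Ankrd37 was 0.757. Without shPostn replicate 2 Egln1 was at 0.117 (adjusted p = 0.784).

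Among the secreted factors Stc2 fell. Stc2 (ENSMUSG00000020303, chr11:31357307-31370074 on the minus strand of GRCm38) encodes stanniocalcin 2, a secreted glycoprotein that inhibits the protease PAPP-A. It was read at 10.4, 12.9 and 10.8 CPM in shSCR and at 5.23, 4.80 and 3.25 CPM in shPostn. Every silenced library was below every control library (log2 fold change −1.36, SE 0.20, adjusted p = 0.00969). The library with the most macrophage markers, shPostn replicate 3, had the lowest Stc2 level. The call depended on 1 control library: without shSCR replicate 2 the adjusted p was 0.0579 at a log2 fold change of −1.26. Without shPostn replicate 3 the log2 fold change was −1.18 (adjusted p = 0.00287).

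Its relative Stc1, stanniocalcin 1, did not pass the test with 6 libraries. Stc1 stood at 13.5, 9.72 and 10.7 CPM in shSCR and at 0.513, 1.47 and 6.44 CPM in shPostn. All 3 silenced libraries lay below the controls, but they spanned more than the controls did (log2 fold change −2.005, SE 0.84, adjusted p = 0.206). Without shPostn replicate 3 Stc1 passed the test, with a log2 fold change of −3.50 (SE 0.38, adjusted p = 0.00248). Without shSCR replicate 1 instead, its adjusted p was 0.381. The vasodilator peptide gene Adm was read at 24.3, 14.4 and 11.3 CPM in shSCR and at 5.03, 5.76 and 18.7 CPM in shPostn. Replicates 1 and 2 were below every control and replicate 3 within their range (log2 fold change −0.76, adjusted p = 0.48). Without replicate 3 Adm was at −1.63 (adjusted p = 0.048), and without shSCR replicate 1 its adjusted p was 0.789. Vegfa, the main angiogenic growth factor and the most abundant of the 4 per kilobase, was read at 195, 171 and 172 CPM in shSCR and at 177, 163 and 233 CPM in shPostn. The groups overlapped (log2 fold change 0.09, SE 0.14, adjusted p = 0.724), and without shPostn replicate 3 the log2 fold change was −0.08 (adjusted p = 0.575).

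None of the 8 genes of pH control, mitochondria and stress passed edgeR's test with all libraries, 1 had an unadjusted p under 0.05, and DESeq2 called 1, Car12. All 8 had a log2 fold change below 0, with a median of −0.36. The carbonic anhydrase gene Car12 was read at 8.66, 15.3 and 14.8 CPM in shSCR and at 1.23, 3.69 and 6.34 CPM in shPostn. The groups did not overlap (log2 fold change −1.78, SE 0.57, edgeR adjusted p = 0.113). Car9, the other membrane carbonic anhydrase and a textbook marker of hypoxic tumour cells, was read at 126, 76.1 and 89.7 CPM in shSCR and at 46.1, 36.4 and 181 CPM in shPostn. Its 3 silenced libraries thus held both the 2 lowest values and the highest (log2 fold change −0.15, SE 0.67, adjusted p = 0.913). Without shPostn replicate 3 the log2 fold change of Car9 was −1.24 (SE 0.27, adjusted p = 0.0451). Without shSCR replicate 1 instead, it was 0.08 (adjusted p = 0.965).

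Bnip3, a mitophagy receptor and per kilobase the most abundant of these 8, was read at 175, 113 and 107 CPM in shSCR and at 81.5, 70.2 and 174 CPM in shPostn. Replicate 3 was close to the highest control, while replicates 1 and 2 were below all controls (log2 fold change −0.28, SE 0.41, adjusted p = 0.715; −0.80 and adjusted p = 0.122 without replicate 3). Without shSCR replicate 1 instead, the adjusted p of Bnip3 was 0.982. Its promoter, printed above, held the most cores of the 7 shown. The stress gene Ndrg1 had the same layout, at 363, 252 and 237 CPM in shSCR and 132, 116 and 291 CPM in shPostn. So did Ero1l, an oxidase that forms disulfides in the endoplasmic reticulum, at 265, 199 and 185 CPM in shSCR and 105, 91.0 and 232 CPM in shPostn. For both, replicates 1 and 2 lay below all controls and replicate 3 inside the control range, with log2 fold changes of −0.66 and −0.60 (adjusted p = 0.37 and 0.403). Without replicate 3 both passed the test, at −1.19 (adjusted p = 0.0253) and −1.14 (adjusted p = 0.0121). Without shSCR replicate 1 instead, neither did (adjusted p = 0.64 and 0.658). The remaining log2 fold changes with 6 libraries were −0.44 for the mitochondrial adenylate kinase Ak4, −0.27 for the respiratory-chain factor Higd1a and −0.13 for Pdk1, which blocks pyruvate dehydrogenase. Without replicate 3 these 3 passed the test, at −0.64, −0.45 and −0.39 (adjusted p = 0.0354, 0.0177 and 0.0457). With another single library left out, their adjusted p-values reached 0.425, 0.515 and 0.99.

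**Figure D2:**
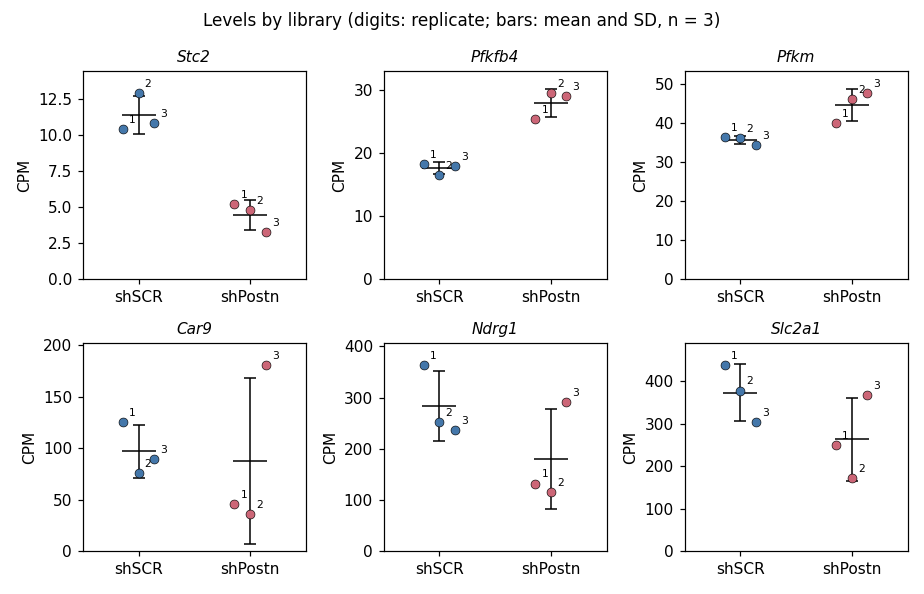
CPM in each library for the 3 genes that passed the test (Stc2, Pfkfb4, Pfkm) and for Car9, Ndrg1 and Slc2a1; digits give the replicate number, and bars the mean and SD of 3 libraries. In the lower row shPostn replicates 1 and 2 lie below every control while replicate 3 reaches 181 CPM for Car9, 291 CPM for Ndrg1 and 366 CPM for Slc2a1.

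Of the carriers, 0 of 3 passed the test in edgeR, 1 had an unadjusted p under 0.05, and DESeq2 called 1, Slc2a3. The glucose carrier gene Slc2a1 (GLUT1) was far more abundant per kilobase than Slc2a3 (GLUT3), at 106.3 ± 18.9 against 3.84 ± 0.73 CPM per kilobase in shSCR (SD, n = 3). Slc2a1 was read at 436, 377 and 304 CPM in shSCR and at 250, 172 and 366 CPM in shPostn. Replicates 1 and 2 were below all controls and replicate 3 was between control values (log2 fold change −0.50, SE 0.29, adjusted p = 0.338; −0.82 and adjusted p = 0.078 without replicate 3). Without shSCR replicate 1 instead, the adjusted p of Slc2a1 was 0.585. Slc2a3 was read at 30.0, 31.7 and 21.8 CPM in shSCR and at 12.01, 9.91 and 22.9 CPM in shPostn, and replicate 3 alone reached the control range. Its log2 fold change was −0.90 (SE 0.34, adjusted p = 0.164), and it passed the test without replicate 3 (−1.34, SE 0.19, adjusted p = 0.00601). Without shSCR replicate 2 instead, its adjusted p was 0.374. Slc16a3, the lactate exporter MCT4, was read at 10.7, 6.89 and 5.99 CPM in shSCR and at 5.69, 4.80 and 23.4 CPM in shPostn. Its value in shPostn replicate 3 was the highest of the 6, and its log2 fold change of 0.52 (SE 0.68, adjusted p = 0.672) was −0.58 without that library (adjusted p = 0.18).

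In the upper steps of glycolysis 2 of 11 genes rose (4.61% of all genes tested) and 0 fell (5.53% of all). Only 1 of the 11, Pfkfb4, rose without shSCR replicate 1, without shPostn replicate 3 or with chromosome medians taken out. The 2 genes that rose with all libraries were Pfkfb4 and Pfkm. Both act at the fructose-6-phosphate step. Pfkfb4 (ENSMUSG00000025648, chr9:108991778-109032228 on the plus strand) encodes an enzyme that makes and breaks fructose-2,6-bisphosphate, the activator of phosphofructokinase. It was read at 18.3, 16.6 and 18.02 CPM in shSCR and at 25.5, 29.6 and 29.1 CPM in shPostn. All silenced libraries were above all controls, with a small spread in each group (log2 fold change 0.67, SE 0.09, adjusted p = 0.00692). The call held without each library in turn, with adjusted p-values up to 0.0424, and replicate 3 lay close to replicate 2.

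Pfkm (ENSMUSG00000033065, chr15:98092589-98132451 on the plus strand), the muscle-type subunit of phosphofructokinase, was read at 36.4, 36.2 and 34.4 CPM in shSCR and at 40.1, 46.1 and 47.7 CPM in shPostn. The groups did not overlap, but the difference was small (log2 fold change 0.32, SE 0.08, adjusted p = 0.0492). The call was lost without shSCR replicate 1, 2 or 3 (adjusted p = 0.127, 0.152 and 0.163), without shPostn replicate 2 or 3 (0.131 and 0.0611), and with upper quartile scaling (0.0623), no composition factors (0.0664), no count filter (0.0517), limma-voom (0.0537) or chromosome medians taken out (0.0724). Its log2 fold change stayed between 0.27 and 0.34 in these fits, at 0.316 with chromosome medians taken out. The other subunits were the liver type Pfkl, at 37.3 ± 3.06 CPM per kilobase in shSCR, and the platelet type Pfkp, at 5.97 ± 0.94, with Pfkm between them at 10.7 ± 0.33 (SD, n = 3). The order of Pfkm and Pfkp rests on the exon lengths used, 3340 and 13401 bases. Pfkp held more reads than Pfkm in every shSCR library. The level of Pfkl did not separate the groups (log2 fold change −0.04, SE 0.13, adjusted p = 0.886). Pfkp was read at 91.3, 82.3 and 66.3 CPM in shSCR and at 39.2, 41.9 and 78.0 CPM in shPostn. Replicate 3 again lay in the control range (log2 fold change −0.59, SE 0.30, adjusted p = 0.271), and without it Pfkp passed the test (−0.98, SE 0.14, adjusted p = 0.00574). Without shSCR replicate 1 instead, the adjusted p of Pfkp was 0.503. Without replicate 3 the 3 subunit genes thus stood at 0.27 for Pfkm (adjusted p = 0.0611), −0.18 for Pfkl (adjusted p = 0.18) and −0.98 for Pfkp, and the differences between them were not tested.

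Hk2, the hexokinase that HIF induces, was more abundant per kilobase in shSCR than the housekeeping Hk1, at 30.5 ± 4.10 against 16.1 ± 1.29 CPM per kilobase (SD, n = 3). It was read at 207, 182 and 158 CPM in shSCR and at 146, 111 and 174 CPM in shPostn. Replicates 1 and 2 were below all controls (log2 fold change −0.34, SE 0.18, adjusted p = 0.28; −0.50 and adjusted p = 0.0811 without replicate 3), and its promoter above holds 2 ACGTG cores. Without shSCR replicate 1 instead, the adjusted p of Hk2 was 0.541. Aldoa, the main aldolase and the most abundant gene of these steps per kilobase (345 ± 31.7 CPM per kilobase in shSCR), was read at 1110, 958 and 943 CPM in shSCR and at 962, 781 and 1147 CPM in shPostn. The groups overlapped (log2 fold change −0.06, SE 0.14, adjusted p = 0.831). The remaining log2 fold changes were −0.07 for Hk1, 0.0050 for Gpi1, 0.03 for Tpi1, 0.40 for Pfkfb3, the other fructose-2,6-bisphosphate enzyme named here, and 1.38 for the brain-type aldolase Aldoc. Aldoc was close to absent, at 0.305 to 0.886 CPM in shSCR and 0.410, 0.404 and 3.70 CPM in shPostn, and Pfkfb3 stood at 21.9 CPM in shPostn replicate 3 against 7.53 to 10.8 CPM in the other libraries. Both positive values rest on shPostn replicate 3: without it they were −0.50 for Aldoc (adjusted p = 0.596) and −0.18 for Pfkfb3 (adjusted p = 0.533).

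The lower steps gave 0 calls among 6 genes in edgeR, 1 unadjusted p under 0.05, and 1 call in DESeq2, Eno1. These are among the most abundant genes of the set, led by Gapdh at 949 ± 24.2 CPM per kilobase in shSCR and 875 ± 104 in shPostn (SD, n = 3). Gapdh was read at 4035, 3845 and 3886 CPM in shSCR and at 3666, 3162 and 4017 CPM in shPostn, and the groups overlapped (log2 fold change −0.12, SE 0.10, adjusted p = 0.524). Eno1, the enolase, was read at 2406, 2337 and 2317 CPM in shSCR and at 2014, 1784 and 2186 CPM in shPostn. The groups did not overlap, with a small difference (log2 fold change −0.24, SE 0.09, edgeR adjusted p = 0.154). Eno1, like Slc2a1, Car9 and Ak4, lies on chromosome 4, whose median log2 fold change was −0.14. With chromosome medians taken out Eno1 was at −0.096 (adjusted p = 0.587), Slc2a1 at −0.36, Car9 at −0.0057 and Ak4 at −0.30. Ldha, which turns pyruvate into lactate, was read at 1262, 1153 and 1094 CPM in shSCR and at 1112, 856 and 1189 CPM in shPostn, and these overlapped (log2 fold change −0.15, SE 0.13, adjusted p = 0.504). Pgk1, Pgam1 and Pkm had log2 fold changes of 0.03, 0.10 and −0.07. Summed over the 17 genes of glycolysis, the level was 15408, 14088 and 14056 CPM in shSCR and 13790, 11876 and 15121 CPM in shPostn. Of the silenced libraries, replicates 1 and 2 lay below the control range, with replicate 2 the lowest of the 6. Reads may be shared with near-identical copies: 10 such copies were found and 2 of them were tested, with Pgam1-ps2 at 2.98 to 27.3 CPM and Eno1b at 0.649 to 1.68 CPM.

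**Figure D3:**
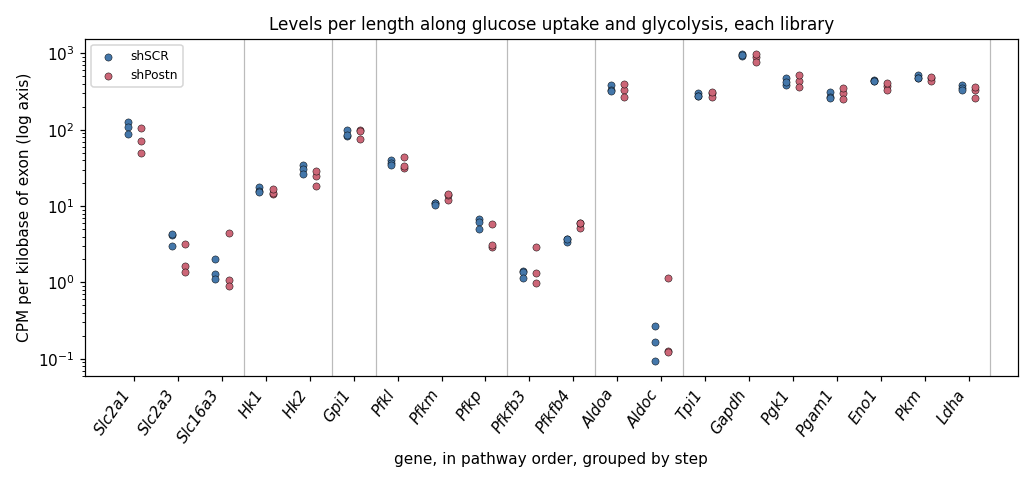
CPM per kilobase of exon on a log axis for the carriers and the glycolysis genes in pathway order; each point is a library, blue for shSCR and red for shPostn. Levels run from Gapdh at 949 CPM per kilobase in shSCR to Aldoc at 0.176, and the groups are separated at Pfkm, Pfkfb4 and Eno1.

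The libraries varied together over much of the set. shPostn replicate 3 was the highest of its group for 34 of the 38 genes, against 34.1% of all genes tested, and shSCR replicate 1 for 34 as well, against 32.1%. shPostn replicate 2 was the lowest of its group for 29 of the 38 genes, against 28.3% of all genes tested. The exceptions to the high value of replicate 3 were Bhlhe40, Stc2, Gpi1 and Pfkfb4. The median over the 38 genes of the log2 level relative to the mean of the 6 libraries was 0.17, −0.01 and −0.05 in shSCR replicates 1 to 3 and −0.20, −0.42 and 0.24 in shPostn replicates 1 to 3, while over all tested genes it stayed between −0.016 and −0.0053. The spread was wider for the genes of pH control, mitochondria and stress, from −0.88 in shPostn replicate 2 to 0.44 in shSCR replicate 1, than for the lower steps of glycolysis, from −0.26 to 0.13; this difference between roles was not tested. shPostn replicates 1 and 2 were both below every control for 23 of the 38 genes (24.5% of all genes tested). In replicate 3 the level was within the control range for 17 genes (27.5% of all genes tested), above it for 16 (35.5% of all) and below it for 5, Bhlhe40, Stc1, Stc2, Car12 and Eno1 (37.0% of all). The 16 are 42.1% of the set, near that background. Genes counted in this way vary together and are not replicates.

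The 2 libraries with the higher hypoxia values were also the 2 with the most macrophage and erythroid marker reads, as the plot of library context shows. Macrophage markers summed to 246, 177 and 79.7 CPM in shSCR and to 129, 59.0 and 1209 CPM in shPostn. Within each group the median level of the 38 genes had the same order as this sum, with shPostn replicate 2 lowest in both. Immediate early and dissociation genes had another order, with 11557 CPM in shPostn replicate 1 and 5402 to 7500 CPM in the other 5. Endothelial markers summed to 97.8 to 118 CPM in shSCR and to 70.3, 73.5 and 105 CPM in shPostn. Flt1 alone held most of this, at 78.4 to 97.9 CPM in shSCR and 59.0, 64.0 and 91.7 CPM in shPostn. Only 6 of the 13 endothelial markers were high enough to test, so the sum is no measure of endothelial cells. The part of these other cells in the values above was not tested, and in sorted bulk cells a smaller share of hypoxic cells and less RNA per cell cannot be told apart.

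**Figure D4:**
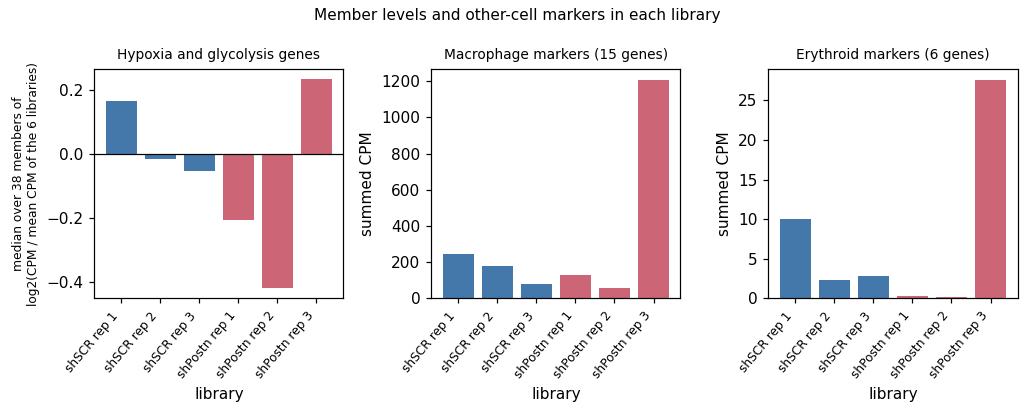
For each library, the median over the 38 genes of log2 CPM relative to the mean of the 6 libraries (left), the summed CPM of 15 macrophage markers (middle) and of 6 erythroid markers (right); blue bars are shSCR and red bars shPostn. shPostn replicate 3 is highest in all 3 panels and shPostn replicate 2 lowest.

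Leaving out shPostn replicate 3 gave a different count. That library was the highest of its group for 34 of the 38 genes, so leaving it out lowers their shPostn level by construction. With 3 control and 2 silenced libraries, 15 of the 38 genes fell (39.5%, against 9.2% of all genes in that fit) and 1 rose, Pfkfb4 (7.93% of all genes). The genes that fell were Egln1, Ankrd37, Adm, Stc1, Stc2, Car9, Car12, Higd1a, Ndrg1, Ero1l, Ak4, Pdk1, Slc2a3, Pfkp and Eno1, and the median log2 fold change of the 38 was −0.34 against −0.0019 over all genes. They hold 7 of the 8 genes of pH control, mitochondria and stress, 3 of the 4 secreted factors and 2 of the 6 regulators, 1 of the 3 carriers, 1 of the 11 upper and 1 of the 6 lower genes of glycolysis. With all 6 libraries and the mean level of the pan-leukocyte markers as a covariate, 17 fell (44.7%, against 8.96% of all genes) and 2 rose, Pfkm and Pfkfb4 (7.43% of all genes). Bnip3, Slc2a1 and Hk2 were added to that list and Car12 was not on it. This covariate was 1.6 in shPostn replicate 3 and −0.75 to 0.057 elsewhere, so that the fit too rests on this library. Without shSCR replicate 1 the counts were 1 fell (1.92% of all genes) and 1 rose (1.39% of all genes), with a median log2 fold change of −0.016. Without both shSCR replicate 1 and shPostn replicate 3, a choice made after seeing the data, 11 of 37 tested genes fell (5.93% of all genes) and 1 rose (5.21% of all genes), with a median of −0.25. Without shSCR replicate 2 the call of Stc2 was lost, which left 0 that fell in edgeR (1.46% of all genes), and 1 rose, Pfkfb4 (0.909% of all genes).

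**Figure D5:**
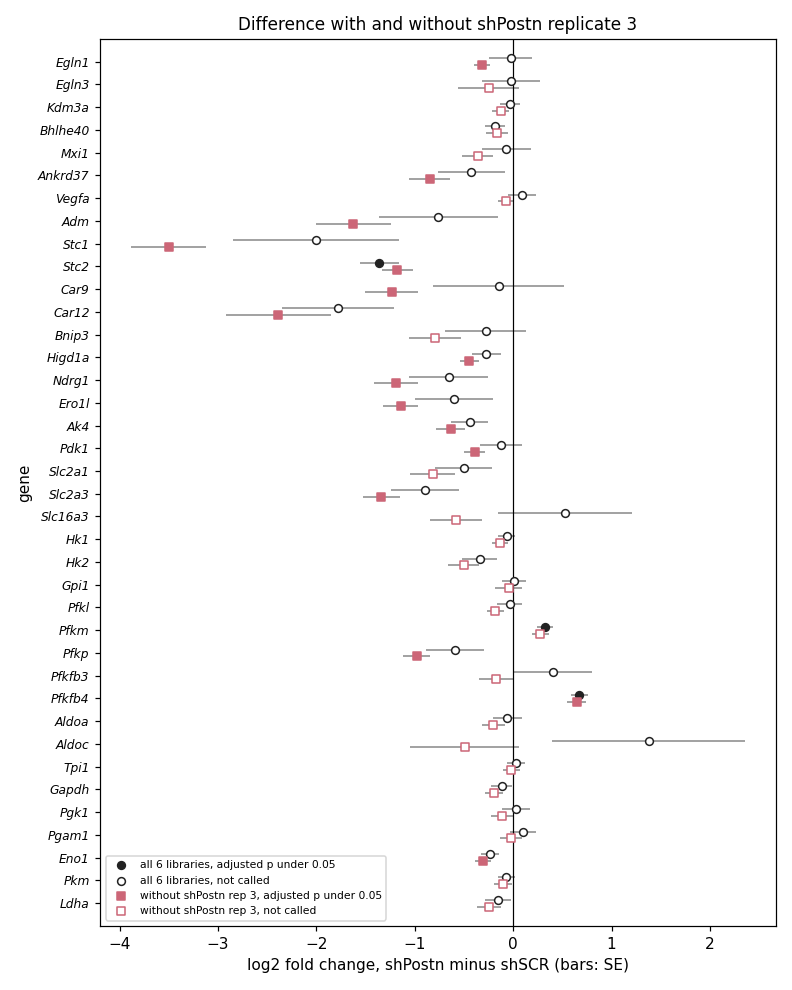
Log2 fold change, shPostn minus shSCR, with its SE for each of the 38 genes, from all 6 libraries (circles) and without shPostn replicate 3 (squares); filled symbols have an adjusted p under 0.05. With all libraries 3 symbols are filled, and without replicate 3 there are 16, of which 15 lie below 0.

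The other genes of the pathway, from lists written by hand with earlier results known, gave few calls with all libraries. Over all genes tested 4.61% rose and 5.53% fell in edgeR, and 7.54% rose and 7.86% fell in DESeq2. The lists are short, and their counts are no result about them. Of 19 tested proteins of the HIF pathway, 2 fell and 0 rose in edgeR (6 had an unadjusted p under 0.05, and DESeq2 called 3 as lowered and 1 as raised). Those 2 were Cul2, the scaffold of the ligase that destroys HIF-α (log2 fold change −0.66, SE 0.07, adjusted p = 0.00458), and Siah2, a ligase for the prolyl hydroxylases (−0.39, SE 0.09, adjusted p = 0.0372). Cul2 lies on chromosome 18, whose genes had a median of −0.45, and with chromosome medians taken out it was at −0.21 (adjusted p = 0.133). Siah2 was lost without any 1 of the shSCR libraries (adjusted p = 0.132, 0.128 and 0.109) or shPostn replicate 2 (0.0868), at log2 fold changes of −0.36 to −0.41. Hif1a itself, the HIF-1α gene, was read at 217, 200 and 178 CPM in shSCR and at 278, 229 and 242 CPM in shPostn. The groups did not overlap (log2 fold change 0.33, SE 0.10, adjusted p = 0.0869), but Hif1a lies on chromosome 12, and with the chromosome medians taken out it was at −0.06 (adjusted p = 0.773). Epas1, the HIF-2α gene, was too low to test, at 0.303 to 0.489 CPM in 5 libraries and 2.20 CPM in shPostn replicate 3.

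Of 55 other hypoxia targets tested, 1 rose (4.61% of all genes tested) and 2 fell (5.53% of all), with a median log2 fold change of −0.03. Angptl4, a secreted inhibitor of lipoprotein lipase, rose (0.45, SE 0.10, adjusted p = 0.0408). The lipoprotein receptor gene Vldlr (−1.67, SE 0.26, adjusted p = 0.0157) and the cytokine gene Mif (−0.47, SE 0.11, adjusted p = 0.0405) fell. All 3 were lost without any 1 of the shSCR libraries or without shPostn replicate 2, and Mif also without shPostn replicate 1, with adjusted p-values up to 0.147 for Angptl4, 0.0672 for Vldlr and 0.157 for Mif. With chromosome medians taken out Vldlr passed the test (adjusted p = 0.0245), while Angptl4 (0.41, adjusted p = 0.0701) and Mif (−0.48, adjusted p = 0.0549) had about the same log2 fold change and did not. Without shPostn replicate 3, 17 of the 55 fell (9.2% of all genes in that fit) and 1 rose (7.93% of all genes), and the median was −0.15. Without shSCR replicate 1 instead, 0 fell (1.92% of all genes) and 0 rose (1.39% of all genes), and the median was 0.0021. These come from the same libraries as the values of the 38 genes and are no independent support for them.

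Around glycolysis, 1 of 15 tested isoenzyme and carrier genes fell (5.53% of all genes tested), the heart-type lactate dehydrogenase Ldhb, and 0 rose (4.61% of all). Of the 15, 3 had an unadjusted p under 0.05, and DESeq2 called 1 as raised. Ldhb was read at 62.4, 68.0 and 58.3 CPM in shSCR and at 37.2, 45.1 and 47.5 CPM in shPostn. The groups did not overlap (log2 fold change −0.54, SE 0.10, adjusted p = 0.0228), and the call was lost without any 1 of the shSCR libraries or shPostn replicate 2 (adjusted p up to 0.103). Among 18 genes that handle pyruvate and lactate, 1 rose (4.61% of all genes tested) and 2 fell (5.53% of all). Dld, a shared subunit of pyruvate dehydrogenase, rose (0.36, SE 0.07, adjusted p = 0.0267). The pyruvate dehydrogenase phosphatase Pdp1 (−0.59, SE 0.12, adjusted p = 0.0243) and the malic enzyme Me2 (−0.57, SE 0.11, adjusted p = 0.0199) fell. Dld lies on chromosome 12 and Me2 on chromosome 18, and with chromosome medians taken out none of these 3 passed the test (log2 fold change −0.03, −0.45 and −0.13; adjusted p = 0.869, 0.0758 and 0.535). All 3 were also lost when 1 library was left out, with adjusted p-values up to 0.115 for Dld and 0.0946 for Pdp1 and Me2.

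The pentose phosphate pathway, which branches from glycolysis at glucose-6-phosphate, gave 0 calls among 12 genes in edgeR (5 had an unadjusted p under 0.05, and DESeq2 called 1 as lowered). With chromosome medians taken out Pgd rose, and without shPostn replicate 3 H6pd fell. Without shSCR replicate 1 none was called. Its most abundant genes were Tkt, transketolase, with a log2 fold change of −0.26 (SE 0.10, adjusted p = 0.162), and H6pd, of the endoplasmic reticulum, with −0.31 (SE 0.09, adjusted p = 0.0717). Of 15 tested regulators that act on glycolysis genes through MYC or nutrient sensing, 1 fell (5.53% of all genes tested) and 1 rose (4.61% of all). Mlxip, the glucose-responsive factor MondoA, fell (−0.71, SE 0.09, adjusted p = 0.00707). Prkaa2, a catalytic subunit of the energy sensor AMPK, rose (0.89, SE 0.20, adjusted p = 0.0351) and lost its call without any 1 library but shPostn replicate 3 (adjusted p up to 0.134). Mlxip kept its call without each library in turn, with adjusted p-values up to 0.0437.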

How the data were processed

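Poly(A) RNA of RFP-positive sarcoma cells was measured in 6 libraries, 3 shSCR and 3 shPostn. Estimated counts for each Ensembl gene were deposited; per the submitters' processing notes Salmon made them on build mm10, and its version is not given in the sources used here. Every value was whole (0 were not), and 16265 genes were at 0 in every library. Depth was 19603269 to 20376554 counts per library, and 0 columns were left unused.

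GENCODE M21 on GRCm38 gave symbols for 35493 IDs, positions and exon lengths; where IDs shared a symbol (45 symbols) the one with the most counts was used. Counts were tested with edgeR 4.0.16 in R 4.3.3 (filterByExpr with a minimum count of 10, TMM, robust quasi-likelihood F-test), with Benjamini-Hochberg adjustment across 12819 genes and a threshold of 0.05. SEs were derived from each log2 value and its F statistic. The fit was also run on simulated counts, drawn independently for each gene with the same dispersion throughout. Those counts hold no libraries in which many genes vary together, so they do not address that feature of these data. Alternatives were other scalings and filters, DESeq2 1.42.0, limma-voom 3.58.1, the replicate number as a block, a leukocyte covariate, chromosome medians taken out as offsets, and each library left out. Same-numbered libraries did not deviate together, so no pairing was used in the report.

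The genes and lists were chosen with earlier results of these data known. Named were Postn, every gene of the set that passed the test, the 3 with the smallest p among the rest, the most abundant per kilobase of each role, 5 textbook targets, and called genes of each pathway list; library values of Stc1, Adm, Ndrg1, Ero1l, Slc16a3, Pfkp, Pfkfb3, Aldoc and Egln1 were added after they were seen. Promoter sequences are RefSeq's, on GRCm38.p6. The level of 1 marker gene is not reported here. Figures used matplotlib 3.10.9.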

Additional observations from a re-analysis of the deposited data

How the results depend on the processing

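Of the 38 genes 2 rose and 1 fell, and 1300 genes changed in all. The count that rose was 1 under upper quartile factors, no composition factors, no count filter, limma-voom, the replicate block, chromosome medians taken out, and without both shSCR replicate 1 and shPostn replicate 3 (chosen after seeing the data), and 1 to 2 with 1 library left out. The count that fell was 5 with DESeq2, 2 with the replicate block, 17 with the leukocyte covariate, 11 without both libraries, and 0 to 15 with 1 library left out (0 without shSCR replicate 2, 15 without shPostn replicate 3). All changed genes numbered 1973 with DESeq2, 735 with the block, 2101 with the covariate, 654 with chromosome medians taken out, and 307 to 2220 with 1 library left out; the cause was not tested. The replicate numbers do not pair the samples (correlations of same-numbered libraries −0.458 to −0.06, of others −0.386 to 0.433); under the block Pfkfb4 rose, Stc2 and Car12 fell, and Pfkm was not called (adjusted p = 0.102). No library correlated best with its own number.

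Some log2 fold changes turned sign, among them those of Aldoc, Slc16a3 and Pfkfb3, which were not near 0 with all libraries (1.38, 0.52 and 0.40). The leukocyte covariate gave −0.0375 for Vegfa, −0.342 for Slc16a3, −0.0629 for Gpi1, −0.0607 for Pfkfb3, −0.137 for Aldoc, −0.0206 for Tpi1, −0.0889 for Pgk1 and −0.00924 for Pgam1. Without both libraries the values were −0.0116 for Vegfa, −0.293 for Slc16a3, −0.113 for Pfkfb3 and −0.0301 for Pgk1. Chromosome medians taken out gave −0.0343 for Pgk1, −0.0593 for Hif1a and −0.026 for Dld. Gpi1 was at −0.014 with upper quartile factors, −0.00413 with no count filter, −0.000614 with limma-voom and −0.000721 with the block. With 1 library left out the values lay between −0.32 and 0.117 for Egln1, −0.25 and 0.216 for Egln3, −0.126 and 0.0554 for Kdm3a, −0.359 and 0.105 for Mxi1, −0.0772 and 0.194 for Vegfa, −1.24 and 0.221 for Car9, −0.58 and 0.888 for Slc16a3, and −0.133 and 0.00123 for Hk1. They lay between −0.0622 and 0.119 for Gpi1, −0.182 and 0.0521 for Pfkl, −0.176 and 0.684 for Pfkfb3, −0.202 and 0.0716 for Aldoa, −0.495 and 1.82 for Aldoc, −0.0218 and 0.0904 for Tpi1, −0.111 and 0.151 for Pgk1, and −0.0205 and 0.211 for Pgam1. With relative log expression size factors, all 51 named genes kept their direction and side of the threshold. Aldoc had the fewest reads of the 38 genes, with 6 to 74 counts per library.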
